A study of Homo sapiens with 16 samples.

Results

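The genes described here shorten poly(A) tails, read them or act on mRNAs after the tail is shortened: the CCR4-NOT subunits CNOT1, CNOT6 and CNOT7, the BTG adaptors BTG1 and BTG2, the cytoplasmic polyadenylation element-binding proteins CPEB2, CPEB3 and CPEB4, and the helicase DDX6. They were chosen by gene name in a table of Argonaute 2 (Ago2) binding sites. Of the 9 genes, 8 had at least 1 peak, and CNOT7 had none in the table used here. Together they held 43 of 4718 peaks with distinct values and 8 of 2213 genes.

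The samples were cultures of 293S, a cell line derived from human embryonic kidney, either given 1 µM hippuristanol for 30 min or left untreated, with no other treatment or genetic change in the labels. Hippuristanol is an inhibitor of eIF4A, a helicase that unwinds mRNA leaders during translation initiation. There were 2 cultures per treatment, and the material of each culture was divided into an RNA-seq aliquot and 3 aliquots for crosslinking and immunoprecipitation of Ago2 (CLIP), each with an antibody from another supplier. For each peak, the authors gave 1 log average over both treatments and 1 log ratio of hippuristanol over untreated. How the 12 CLIP libraries were combined into these values is not stated. Neither the header nor the labels name a base for the logarithm, so values stay in the units of the authors and no fold can be stated. There was no value per culture, so the error between cultures is unknown, no difference between treatments has a replicate check, and no test was made. Read depth is unknown. RNA-seq values were not analysed here, so more Ago2 on a transcript and more of the transcript cannot be told apart. Peaks report Ago2 contact and not expression, so the identity of the cells could not be checked from expressed markers. None of 7 markers of liver, blood, connective tissue, epithelium, glia and muscle had a peak.

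A microRNA guides Ago2 to a match of its seed in the 3′ UTR of an mRNA, and a TNRC6 protein bound to Ago2 then recruits the CCR4-NOT complex. CNOT1 is the scaffold of that complex, and CNOT6 and CNOT7 are nucleases that remove the poly(A) tail. BTG1 and BTG2 bind the CNOT7 type of nuclease and stimulate deadenylation. CPEB proteins bind short U-rich elements in 3′ UTRs and can lengthen or shorten the tail, and DDX6 binds CNOT1 and represses translation and promotes decapping. CCR4-NOT is thus part of the silencing machinery, and the other genes act on the poly(A) tail or together with CCR4-NOT. The peaks below are places where the mRNAs of these genes were themselves in contact with Ago2.

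The 3′ UTRs of all 5 BTG and CPEB genes held a match to the seed of the miR-92 family, which includes miR-25, miR-32 and miR-363. These sequences are shown because it was the only one of 17 microRNA families searched with a match in every one of the 5, a subset picked after the matches were seen. Over all 8 genes with a peak it had a match in 5, as many as the miR-19, miR-30 and miR-130 families each had. The mature miRNA is from RefSeq (GRCh38.p14), with its seed, bases 2 to 8, in capitals. The sites are from GENCODE 29 transcripts (GRCh38), in transcript orientation, with the 7 bases that pair with the seed in capitals. Positions count from 1 at the first base of the 3′ UTR.
miR-92a-3p: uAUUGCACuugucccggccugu
BTG1 at 2783: gtctttatccttatGTGCAATa
BTG2 at 1059: agttctcagtcactGTGCAATa
BTG2 at 1370: tttgtcgtagacttGTGCAATa
CPEB2 at 1028: tatttgtaatccctGTGCAATt
CPEB2 at 2937: ttctgtgttgtgatGTGCAATa
CPEB3 at 2949: ctatttgttgttatGTGCAATa
CPEB4 at 3395: taacttcaagttatGTGCAATa

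The match is followed by an A, opposite base 1 of the miRNA, at each of these sites but the first of CPEB2. Around the match, the sites of CPEB3 and CPEB4 share an unbroken run of 13 bases, gttatGTGCAATa, and that of BTG1 shares 12 of them with each. The motif GTGCAAT, searched on the transcript strand alone, occurred in 19.3% of 1508 genes with a 3′ UTR peak and an annotated 3′ UTR. Long 3′ UTRs hold more matches of any kind, and those of the BTG and CPEB genes were long, at 2164 to 5839 bases against a median of 1631. Of the 588 genes whose 3′ UTR was at least 2164 bases long, 31.5% held the motif. That floor is the length of BTG2, the shortest of the 5. The 3′ UTRs of BTG1, CPEB2, CPEB3 and CPEB4 were 3771 to 5839 bases long, and the share among genes of such length was not computed. The peaks are placed on hg19 and the transcripts on GRCh38, so whether a match lies inside a peak is not known here.

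The miR-30 family came next, with a match in 4 of the 5 genes, all but BTG2, and in 27.2% of all genes with a 3′ UTR peak and 45.4% of those with a 3′ UTR of at least 2164 bases. Its motif is TGTTTAC. All 4 of these genes had a 3′ UTR of 3771 bases or more, well above that floor. The sites of CPEB2 and CPEB3 are shown because they share 12 bases, tgcaTGTTTACt, beside the site of CPEB4, which shares only the 7 bases of the match with them. With the sites of CNOT6 and BTG1, not shown, every pair other than CPEB2 with CPEB3 shares 7 to 9 bases.
miR-30a-5p: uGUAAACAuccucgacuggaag
CPEB2 at 738: gtgaaaaaaatgcaTGTTTACt
CPEB3 at 865: tatttctgactgcaTGTTTACt
CPEB4 at 2851: ttgtgtgacaagtgTGTTTACa

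Over the 17 families, the number of matches ranged widely among the genes. CPEB3 had 20 matches from 12 families and CNOT6 14 from 10. BTG2 had 7 matches from 4 families in its shorter 3′ UTR, and CNOT1 had none in a 3′ UTR of 263 bases. Per 1000 bases, CPEB3 had 3.62 matches, CNOT6 3.33, BTG2 3.23 and BTG1 1.58, against a median of 1.76 over all genes with a 3′ UTR peak. Some motifs overlap by shifted letters, as those of miR-19 (TTTGCAC), miR-130 (TTGCACT) and miR-148 (TGCACTG) do, so that 1 stretch of bases can count for several families.

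**Figure D1:**
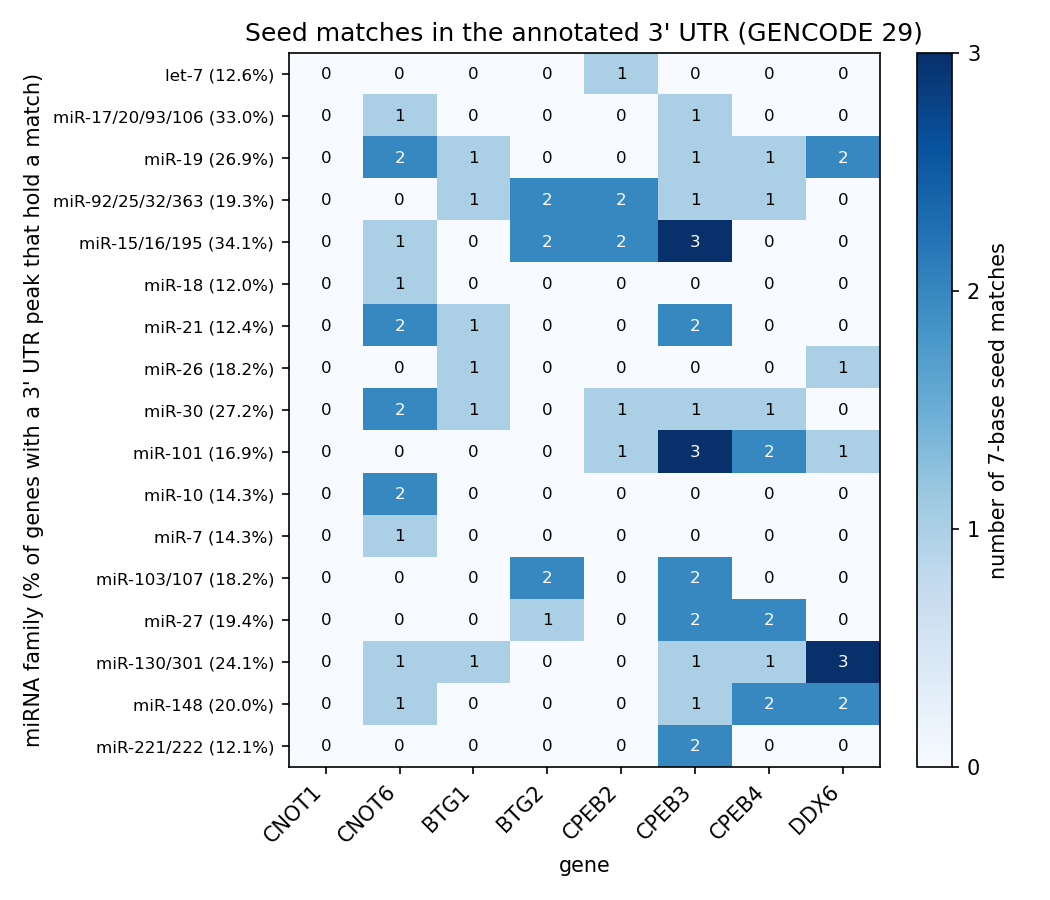
Number of 7-base seed matches of 17 microRNA families (rows, with the percent of all genes with a 3′ UTR peak that hold a match) in the annotated 3′ UTR of each gene with a peak (columns). The miR-92 family row is filled for BTG1, BTG2, CPEB2, CPEB3 and CPEB4 and empty for CNOT1, CNOT6 and DDX6.

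Ago2 contacts on these genes were mostly in 3′ UTRs. Of the 43 peaks, 39 (90.7%) lay in a 3′ UTR, 2 in coding sequence (CDS) and 2 in a 5′ UTR, with an exact Clopper-Pearson 95% interval of 77.9% to 97.4% for the 3′ UTR share. Among all 4718 peaks, 61.3% lay in 3′ UTRs. However, 14.6% of all peaks lay in non-coding exons, a class without any peak of these genes, so the shares do not have a like base. In the mRNA classes alone, all peaks numbered 2894 in 3′ UTRs, 949 in CDS and 185 in 5′ UTRs. Of the 43 peaks, 29 were those of BTG2, and without them 11 of 14 (78.6%, interval 49.2% to 95.3%) were in 3′ UTRs. These intervals cover counting error only and treat peaks as independent, which overlapping peaks of 1 gene are not.

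The genes' log ratios lay on both sides of 0. By the median of its peaks, the gene log ratio was above 0 for 6 of 8 genes, where 60.5% of all genes were above 0. Above 1 were 2 genes, BTG1 and CPEB4, where 9.17% of all genes were, and below −1 was none, where 3.43% of all genes were. The median of the 8 gene log ratios was 0.34, against 0.17 over all 2213 genes, and 5 of the 8 lay above that level and 3 below. The difference of 0.18 turned to −0.058 with 3′ UTR peaks alone and to −0.052 with peaks pooled over genes.

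**Figure D2:**
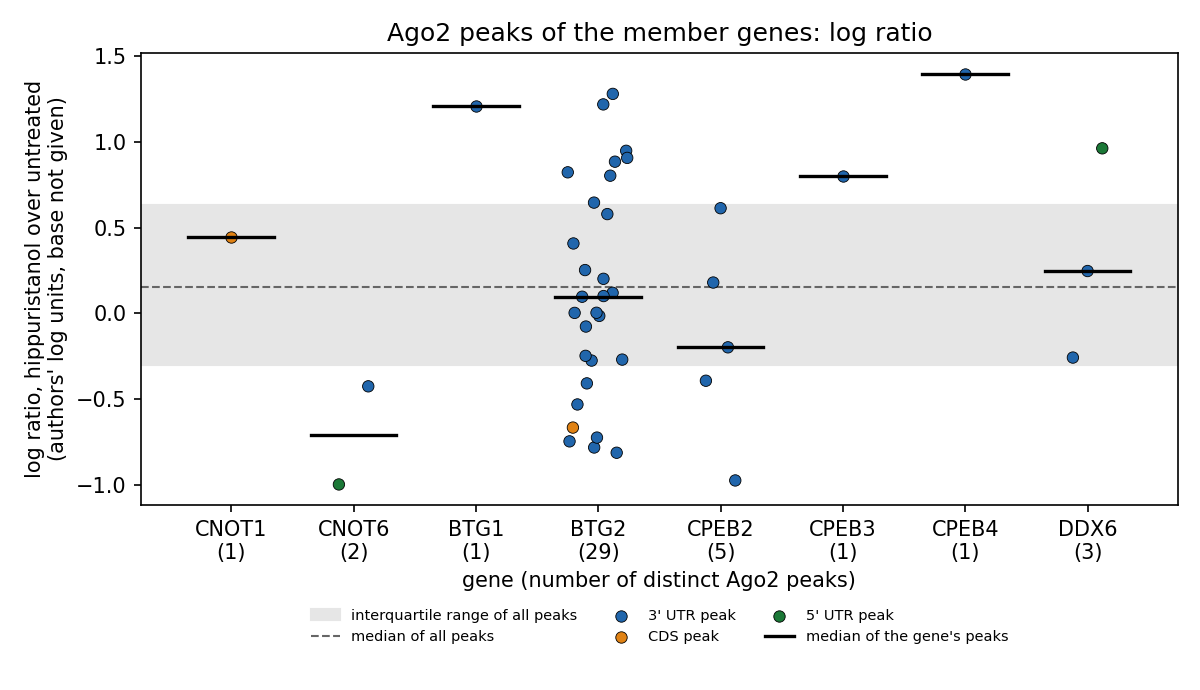
Log ratio of hippuristanol over untreated (y axis, authors' log units) for each distinct Ago2 peak of the 8 genes (x axis), coloured by position in the mRNA; black bars are gene medians, and the grey band and dashed line are the interquartile range and the median of all peaks. The single peaks of BTG1 and CPEB4 lie above 1, both peaks of CNOT6 lie below 0, and the peaks of BTG2 spread from −0.81 to 1.28.

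At the level of peaks, 4 of 43 had a log ratio above 1, where 11.3% of all peaks did, and none had one below −1, where 4.22% of all peaks did. A log ratio above 0 was found for 25 of 43 (58.1%), against 59.1% of all peaks. By these counts the 43 peaks were near the background. The log average lay above the median of all peaks for 38 of the 43. That count rests largely on BTG2, which had 29 of 29 above it, while the other genes had 9 of 14.

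The CCR4-NOT subunits with a peak went in different directions. The authors' deposited table listed for CNOT1 a single CDS peak (hg19, chromosome 16, 58581164 to 58581200, minus strand) with a log ratio of 0.44 and a log average of −8.32. Its log average was at percentile 6.64 of gene log averages, the lowest of the 8 genes. For CNOT6, the authors' deposited table listed a 5′ UTR peak (chromosome 5, 179921715 to 179921736, plus strand) with a log ratio of −0.998 and a log average of −6.00. The authors' deposited table gave the 3′ UTR peak of CNOT6 (chromosome 5, 180002316 to 180002344) a log ratio of −0.43 and a log average of −7.25. Both were negative, and the gene median of −0.71 stood at percentile 8.77 of all genes, the lowest among the 8.

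BTG2, an antiproliferative gene induced by p53 and by growth signals, had the most Ago2 peaks of the 2081 mRNA genes in the table. Its 29 distinct peaks compare with 24 for the next, the transcription factor gene MAZ, and with a median of 1 per gene. Only 3 genes, all non-coding RNAs, had more. The number of peaks called on a gene also depends on how much of its RNA is present, and the part of RNA level in these counts was not tested. The peaks lay within 2228 nt of chromosome 1, plus strand, with 1 peak in the CDS (hg19, 203276443 to 203276483) and 28 in the 3′ UTR. They formed 17 groups of overlapping or single peaks and covered 57.0% of the span. A second deposited entry for the last site, with identical values, was counted once.

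One site of BTG2 stood out by its level and not by its response. In the authors' deposited table, a 26-nt 3′ UTR peak (203278503 to 203278529) had a log average of −2.31, at percentile 98.5 of all peaks, with a log ratio of 0.0033. The next highest log average of the gene was −4.00, and the lowest was −5.75. All 29 were above the median of all peaks, −6.76. Log average and log ratio showed little relation across the 29 peaks (Pearson's r = −0.062, Spearman's rho = −0.014), which share libraries and in part reads.

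**Figure D3:**
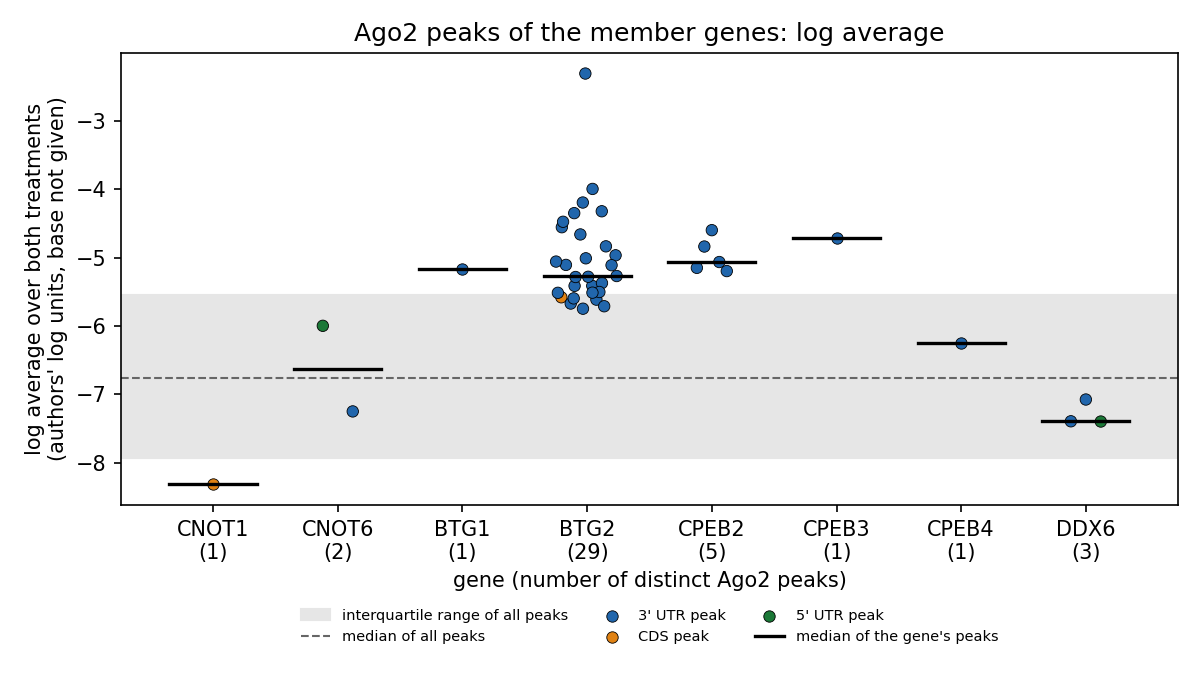
Log average over both treatments (y axis, authors' log units) for each distinct peak of the 8 genes (x axis); colours, bars, band and dashed line as in the plot of log ratios. The peaks of CPEB2, CPEB3 and BTG1 and most of those of BTG2 lie above the interquartile range of all peaks, the top BTG2 peak at −2.31, and CNOT1 lies below the band.

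The BTG2 log ratios changed sign along the mRNA. Over the 29 peaks the lowest was −0.81, the median 0.10 and the highest 1.28, and the gene median stood at percentile 45.4 of all genes. Above 0 were 17 peaks (58.6%), against 59.1% of all peaks, and above 1 were 2, where 11.3% of all peaks were. In the authors' deposited table the CDS peak had a log ratio of −0.67. Peaks were grouped by the distance of their start from that of the CDS peak, in windows of 500 nt chosen after the values were seen.

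From 500 to 1000 nt, the 6 peaks had a median log ratio of −0.40, and 2 were above 0. From 1000 to 1500 nt, the 9 peaks had a median of 0.58, with 7 above 0 and a range of −0.25 to 1.28. The windows before and after had medians of 0.10 (5 peaks), 0.062 (6 peaks) and 0.0033 (3 peaks). Overlapping peaks were more alike than pairs in general. They differed by a median of 0.33 (12 pairs, 9 on the same side of 0), against 0.67 over all 406 pairs, which include them. Overlapping peaks share reads, so this likeness is in part built in. The standard deviation of the 29 log ratios, 0.63, was close to the median of 0.61 over the 160 genes with 5 or more peaks, of which 67 had a larger one.

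**Figure D4:**
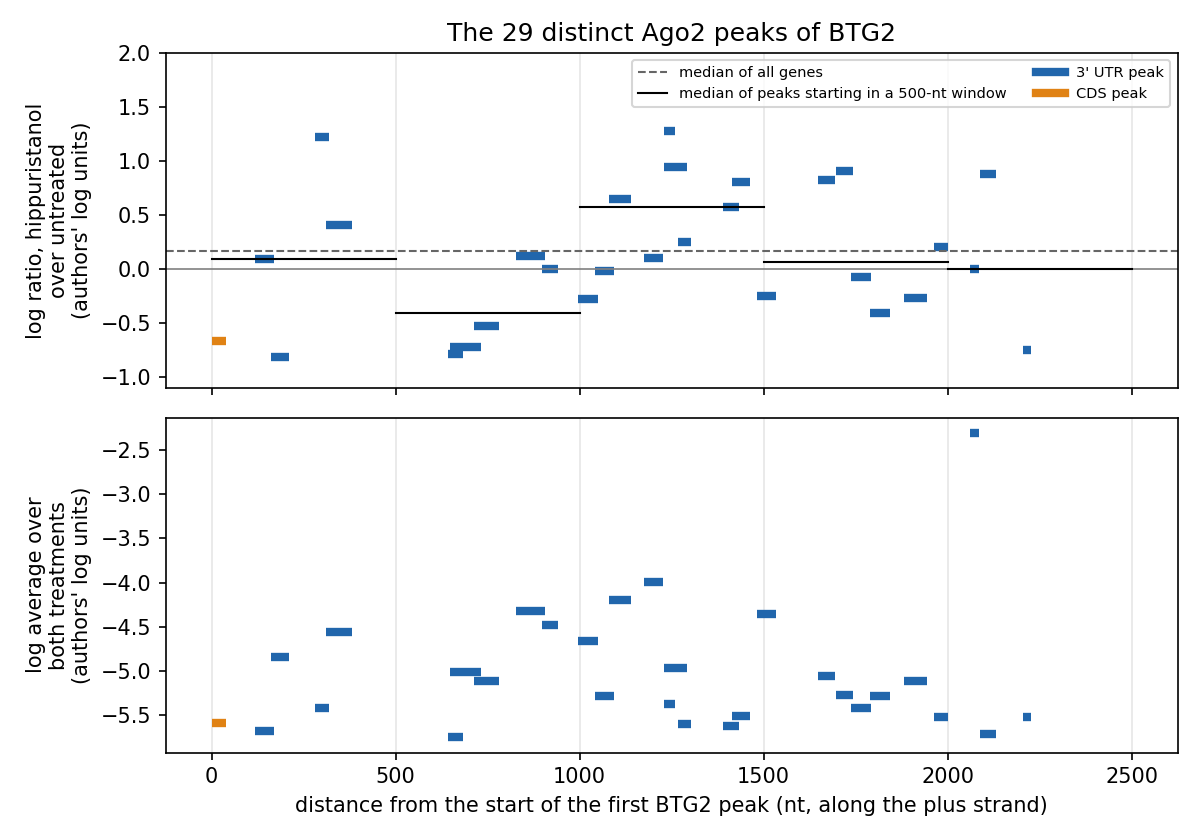
The 29 distinct BTG2 peaks as bars from start to end, by distance in nt from the start of the first peak (x axis), with the log ratio above and the log average below (y axes, authors' log units). Thin black lines are medians of the peaks that start in each 500-nt window; they are lowest from 500 to 1000 nt, at −0.40, and highest from 1000 to 1500 nt, at 0.58, while the highest log average, −2.31, lies near the far end.

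BTG1, the closest relative of BTG2, had a single peak. In the authors' deposited table this 3′ UTR peak (chromosome 12, 92537771 to 92537810, minus strand) had a log ratio of 1.21 and a log average of −5.17. The log ratio stood at percentile 94.9 of all genes, and 2 of the 29 BTG2 peaks had a higher one. The difference between the relatives was therefore within the spread of the BTG2 peaks.

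The 3 CPEB genes, paralogs with similar RNA-binding domains, differed in number of peaks and in log ratio. In the authors' deposited table CPEB4 had a single 3′ UTR peak (chromosome 5, 173386414 to 173386444, plus strand) with a log ratio of 1.40, the highest of the 43, and a log average of −6.25. For CPEB3 the authors' deposited table listed a single 3′ UTR peak (chromosome 10, 93809113 to 93809157, minus strand) with a log ratio of 0.80 and a log average of −4.71. CPEB4 stood at percentile 97.5 of gene log ratios and CPEB3 at percentile 85.0.

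CPEB2 had 5 peaks in its 3′ UTR (chromosome 4, 15068782 to 15071131, plus strand), with a gene median of −0.20 at percentile 27.8. In the authors' deposited table, from the first to the last along the mRNA, the log ratios were −0.39, 0.18, 0.61, −0.20 and −0.97. The highest and lowest thus lay 264 nt apart, and a peak between them had an intermediate value. The CPEB3 and CPEB4 values both lay above every CPEB2 peak. With 1 peak each in CPEB3 and CPEB4, this compares peaks and not genes. All 3 genes held miR-92 and miR-30 family matches. Over all 1508 genes the median gene log ratio was 0.21 for the 291 genes with the miR-92 motif and 0.18 for the 1217 without it. Among genes with a 3′ UTR at least as long as that of BTG2, it was 0.22 for 185 with the motif and 0.18 for 403 without. No such value was computed for miR-30.

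DDX6, the helicase that links CCR4-NOT to decapping, had log averages of −7.40 to −7.08, below the median of all peaks. Its peaks are on the minus strand of chromosome 11. In the authors' deposited table its 3′ UTR peaks had log ratios of −0.26 (118618813 to 118618847) and 0.25 (118622588 to 118622664). The authors' deposited table listed 0.96 for the 5′ UTR peak (118657082 to 118657113), so the DDX6 5′ UTR peak was high where that of CNOT6 was low. The gene median was 0.25, and −0.0056 with the 3′ UTR peaks alone.

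The wider pathway showed a similar mixture. Of 59 genes of deadenylation, decapping, poly(A) binding and CPEB function, 25 had a peak, with a median gene log ratio of 0.39 against 0.17 over all genes. Of these 25, which include the 8 genes above, 15 lay above the median of all genes and 10 below it. Above 0 lay 18 of the 25, where 60.5% of all genes did. Among the 17 that are not one of the genes above, 10 lay above the level of all genes and 7 below, with a range of −0.45 to 0.96. Of these 17, 12 lay above 0.

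By role, a peak was listed for 5 of 6 BTG and TOB adaptors, 3 of 4 CPEB genes and 3 of 5 poly(A) polymerases. It was listed for 2 of 5 poly(A)-binding genes, and for 4 of 12 each of CCR4-NOT subunits, decapping genes and CCR4-NOT recruiters. None of the 3 deadenylases outside CCR4-NOT had a peak. Over the whole list the share was 42.4%. It was 34% without the genes described above, which include all 3 CPEB genes with a peak and the adaptors BTG1 and BTG2. Those genes were chosen with earlier results of these data known, so the shares of their roles may in part reflect that choice. The share of all human genes with a peak was not computed. The differences between these small groups were not tested. TOB1, an adaptor with a PABP-binding tail, had a gene log ratio of 0.63 from 1 peak and the highest log average of the 25 genes, −3.03. BTG3 stood at 0.062 over 4 peaks and TOB2 at −0.071 over 4. The CCR4-NOT ubiquitin ligase CNOT4 stood at −0.38 and the associated protein TNKS1BP1 at 0.42, with 1 peak each.

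The TNRC6 proteins, which tie Ago2 to CCR4-NOT, also lay on both sides of the median of all genes. TNRC6B stood at 0.96 over 3 peaks, TNRC6A at 0.39 over 13 and TNRC6C at −0.45 over 4. PUM2, a Pumilio protein that recruits CCR4-NOT to its own RNA motif, stood at 0.56 over 5 peaks, some of which overlap. All 5 were above 0, where 59.1% of all peaks were. DCP2, the decapping enzyme, stood at 0.64 over 4 peaks and its activator DCP1A at −0.42 over 2. PABPC1, the main cytoplasmic poly(A)-binding protein, stood at 0.73 over 5 peaks, of which 3 overlapping ones were in the 5′ UTR. It has close copies in the genome that may share its reads. The gene log averages of PUM2, DCP2 and PABPC1 were low, at percentiles 5.24, 11.7 and 10.5 of all genes. That of PUM2 was the lowest of the 25 genes.

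**Figure D5:**
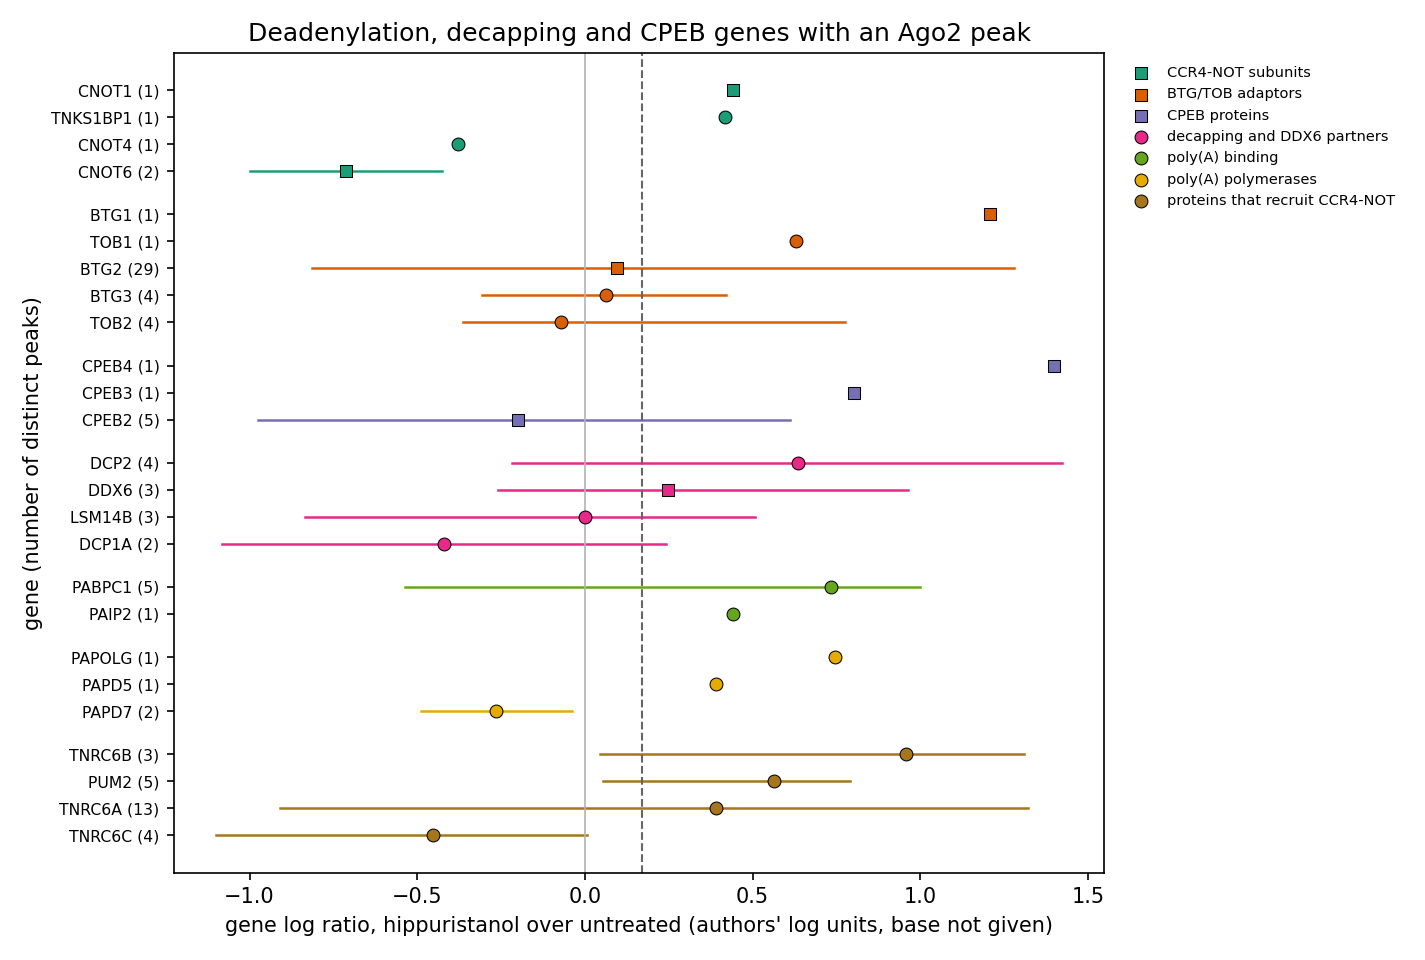
Gene log ratio of hippuristanol over untreated (x axis, authors' log units; marker, median of the gene's distinct peaks; line, lowest to highest peak) for the 25 of 59 pathway genes with a peak, grouped by role, with the number of peaks in parentheses. Squares mark the 8 genes described in full, and the dashed line is the median of all genes, 0.17; within the adaptors, the CPEB genes and the CCR4-NOT recruiters, values lie on both sides of it.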

How the data were processed

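Per the labels, 16 libraries came from 4 cultures of 293S cells, 12 of Ago2 CLIP and 4 of RNA-seq. The deposited table gives scores, normalized by the authors, for each peak, a log average and a log ratio, per the file header. The sources used here give no log base, kind of normalization, peak caller or pooling. The tools, per the submitters' processing notes, were TopHat, DESeq and Bowtie 0.12.8 on hg19, named without a role. Coordinates are printed as deposited. Whether starts count from 0 or 1 is not given.

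Entries of a gene with identical values were counted once (50 of 4768 removed), and each gene took the median of its peaks. Thresholds on the log ratio were 1 and −1. Percentiles are ranks among all peaks or genes. No test was made, because the planned test needed values per library. Every gene of the set was named, with all its peaks or their range, and any gene of the wider list with a peak could be named. Part of the wider list is not reported here and stays out of its counts. The genes and lists were chosen with earlier results of these data known.

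Seed matches (bases 2 to 8) were searched in GENCODE 29 3′ UTRs, 1466 of them found through the RefSeq identifier and 42, with CNOT6 among those, through the symbol. Calculations used Python 3.11.15, pandas 2.3.3 and SciPy 1.17.1, and were tested on simulated data.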

Additional observations from a re-analysis of the deposited data

How the results depend on the processing

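No paired analysis was possible because the table holds 1 log ratio per peak and no value per culture, and for the same reason no culture could be left out. For the 8 genes, the list median minus that of all genes was 0.18. It was −0.058 with 3′ UTR peaks alone and −0.052 with peaks pooled over genes, 0.17 to 0.28 under the other 4 settings (means, repeated entries kept, no overlapping peaks, log average at or above the median) and 0.078 to 0.27 with each gene left out in turn. For the wider list it was 0.22, 0.22 with means and 0.25 with 3′ UTR peaks alone. Relative to the median of all genes, BTG2 turned from 0.10 to −0.072, and DDX6 was −0.0056 with 3′ UTR peaks alone. At a threshold of 0.5, 14 of the 43 peaks were above and 8 below, where 30.6% and 17.0% of all peaks were. Around the median of all peaks, which lowers every log ratio by 0.15, 4 were more than 1 above and 2 more than 1 below. The shares of all peaks past these shifted limits were not computed, so these 2 counts have no background beside them. The cause of these changes was not tested. Depth per library is unknown, so the counting error of single peaks could not be given.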
